A study of Homo sapiens with 6 samples.

Results

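The genes described here are 10 readouts and feedback regulators of the MAP kinase pathway: the phosphatases DUSP4, DUSP5 and DUSP6, the inhibitors SPRY2, SPRY4 and SPRED1, and the transcription factors ETV4, ETV5, FOSL1 and EGR1. They were found by symbol in the deposited table of 60605 genes, where each matched 1 row, and all 10 were among the 14748 genes with enough counts to be tested. The samples were 6 poly(A) RNA libraries of MDA-MB-231, an established human triple-negative breast cancer line that carries active RAS and RAF. In 3 libraries the cells carried a control hairpin (shControl) and in the other 3 a hairpin against PUS1 (shPUS1), a pseudouridine synthase. The comparison asks which transcripts differ between these cells. All 3 shPUS1 libraries share the same knockdown label in the deposited table, and the labels do not name the hairpin. Effects of reduced PUS1 and other effects of the hairpin therefore cannot be told apart. Per the study's methods the PUS1 hairpins were delivered by a lentiviral pLKO.1 vector with puromycin selection, and the backbone of the control hairpin was not given in the sources used here. The labels call the libraries of a group biological replicates, and nothing states that they came from separate infections or selections, so the p-values measure the spread between these libraries.

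In this pathway RAS switches on the kinase RAF, RAF activates MEK, and MEK activates the MAP kinases ERK1 and ERK2, which enter the nucleus and switch on genes. Some of those genes feed back on the pathway: the DUSP phosphatases remove the activating phosphates from MAP kinases, and the Sprouty and SPRED proteins restrain signalling at the level of RAS and RAF. Transcripts such as DUSP6, SPRY4 and ETV4 are commonly used as readouts of ERK output.

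The upstream sequences of EGR1 and DUSP6 are shown because EGR1 is the classic ERK-driven immediate early gene, and DUSP6 was the gene among the 10 with the lowest p-value between the groups. Each is the 250 bases before the gene's RefSeq start on GRCh38.p14, written 5′ to 3′ on the gene's strand, at chr5:138465229-138465478 (plus strand) for EGR1 and chr12:89352502-89352751 (minus strand) for DUSP6. Capitals mark matches to the CArG box, which serum response factor binds, and to GCGNGGGCG, the site of EGR1 itself.
EGR1 upstream: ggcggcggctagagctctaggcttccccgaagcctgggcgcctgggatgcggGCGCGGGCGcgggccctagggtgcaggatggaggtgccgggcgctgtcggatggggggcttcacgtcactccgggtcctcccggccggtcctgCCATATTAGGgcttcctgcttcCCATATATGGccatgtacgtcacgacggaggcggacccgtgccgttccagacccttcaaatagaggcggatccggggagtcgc
DUSP6 upstream: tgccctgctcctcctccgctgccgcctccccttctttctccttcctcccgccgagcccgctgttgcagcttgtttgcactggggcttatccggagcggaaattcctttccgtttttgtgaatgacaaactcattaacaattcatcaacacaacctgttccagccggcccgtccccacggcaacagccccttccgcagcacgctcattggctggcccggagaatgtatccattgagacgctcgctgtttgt
In EGR1 the letters CCATATTAGG and CCATATATGG were CArG matches, at 105 to 96 and 83 to 74 bases before the start, and GCGCGGGCG matched the EGR1 site at 198 to 190 bases. Of 34943 RefSeq windows of this length, 1.16% held a CArG box on either strand and 8.39% held GCGNGGGCG. The DUSP6 window held neither, and also no match to TGANTCA, the AP-1 site, or to CCGGAA, an ETS site, which stood in 6.59% and 14.5% of windows. RefSeq windows, 7 in all, were at hand for 5 of the 10 genes. SPRY2 had 1 CCGGAA and 2 GCGNGGGCG matches, in overlap with no other motif, all in its window at chr13:80341127-80341376. The other SPRY2 windows held no match. SPRY4 had 1 GCGNGGGCG match, and SPRED1 had none. A match is a description of letters and not of binding.

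The 6 libraries held 14241505 to 19625998 estimated counts. The second control library, shControl replicate 2, stood apart: its log2 counts scaled to library size (CPM) correlated with those of the other 2 control libraries at Pearson's r of 0.951 and 0.952, against 0.981 between those 2 and 0.987 to 0.991 among the shPUS1 libraries. It lay at least 2-fold away from the mean of the other controls for 16.4% of genes, so the fold changes are given with and without it. PUS1, the targeted gene, was at 14.5, 27.5 and 12.1 CPM in the shControl libraries and at 6.57, 5.47 and 5.37 CPM in the shPUS1 libraries. Its log2 fold change was -1.64 (SE 0.32, adjusted p = 0.0462), and -1.20 (adjusted p = 0.00311) without shControl replicate 2. The call was lost without shControl replicate 1 and without any 1 of the shPUS1 libraries, with adjusted p of 0.0905 to 0.253. All 6 markers of a mesenchymal basal breast line were present, with vimentin at 286 to 498 FPKM, a level scaled to gene length and library size, while the luminal or epithelial markers ESR1, PGR, FOXA1 and CDH1 stayed below 1 FPKM. The other 3 of those 7 were low but present, GATA3 at 1.55 to 2.16, EPCAM at 2.21 to 3.12 and ERBB3 at 0.65 to 3.19 FPKM, and the sum of the 7 was 5.72 to 8.08 FPKM in shControl and 6.67 to 7.36 FPKM in shPUS1. The summed level of the mesenchymal markers was 831 to 1048 FPKM in shControl and 628 to 661 FPKM in shPUS1. Within it SNAI2 went the other way, from 5.77 to 9.88 FPKM in shControl to 10.95 to 13.8 FPKM in shPUS1, and ZEB1 was at 8.14 to 10.6 and 10.6 to 12.2 FPKM. Among leukocyte markers PTPRC and CD3E were at most 0.02 FPKM, and CD68 was at 37.3 to 42.65 FPKM in shControl and 27.75 to 31.7 FPKM in shPUS1. Of 4 fibroblast markers COL1A2 was at most 0.03 FPKM, and the other 3 were higher in shPUS1. PDGFRB was at 1.32 to 5.63 FPKM in shControl and 6.67 to 8.29 FPKM in shPUS1. COL1A1 was at 0.73 to 2.35 and 3.14 to 3.53 FPKM, and LUM at 0.06 to 0.42 and 1.27 to 1.74 FPKM. The sum of the 4 was 2.11 to 8.20 FPKM in shControl and 11.6 to 13.6 FPKM in shPUS1. The part of these shifts in the results was not tested, and in bulk RNA fewer cells of a type and less RNA per cell cannot be told apart.

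All 10 genes were expressed in both groups. Per length, FOSL1, an AP-1 subunit that marks mesenchymal breast cancer cells, stood highest in shControl at 187 ± 40.4 FPKM (SD, n = 3), followed by DUSP5 at 106 ± 54.9 and DUSP6 at 50.1 ± 7.94 FPKM. DUSP4 was at 29.02 ± 4.63 FPKM, ETV5 at 18.5 ± 3.74, ETV4 at 18.3 ± 2.04, SPRY2 at 14.4 ± 0.647 and SPRY4 at 14.1 ± 3.17 FPKM. SPRED1 at 9.66 ± 0.15 and EGR1 at 4.73 ± 2.83 FPKM were the lowest. The ranges of DUSP5 and DUSP6, of ETV5 and ETV4, and of SPRY2 and SPRY4 overlapped, so those neighbours had no order beyond their spread. In shPUS1, DUSP5 was at 145 ± 4.53 FPKM and FOSL1 at 141 ± 15.1 FPKM with overlapping ranges, and DUSP6 at 35.1 ± 1.73 FPKM lay next to DUSP4 at 31.6 ± 1.08 FPKM. EGR1 was again the lowest, at 5.96 ± 0.662 FPKM.

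**Figure D1:**
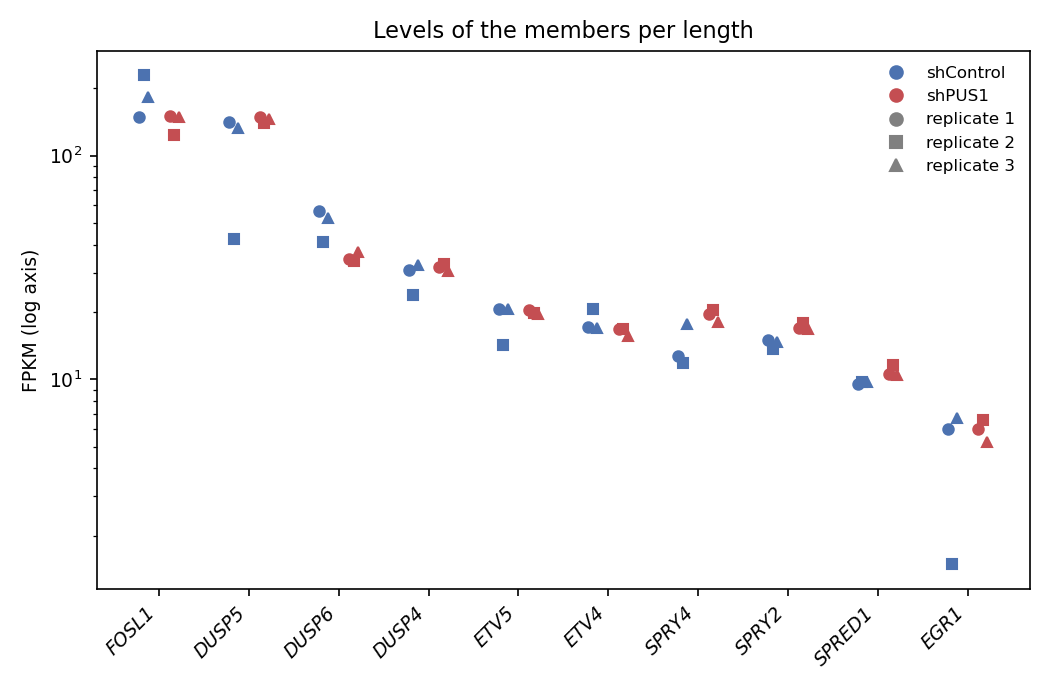
Level per length of the 10 genes on a logarithmic FPKM axis, with a point for each of the 3 shControl and 3 shPUS1 libraries. FOSL1 and DUSP5 stood highest and EGR1 lowest in both groups, and the lowest DUSP5 and EGR1 points belong to shControl replicate 2.

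None of the 10 genes passed an adjusted p of 0.05 in edgeR's quasi-likelihood test with Benjamini-Hochberg adjustment over all genes, a threshold that 2.58% of all genes tested passed (1.74% higher and 0.841% lower in shPUS1). At an unadjusted p under 0.05, SPRY2 and SPRY4 were higher and DUSP6 was lower, where 12.6% of all genes were higher and 12.8% lower. By DESeq2 1 of the 10, DUSP6, was called lower and 0 were called higher, where 5.36% of all genes were called lower and 7.05% higher. By limma voom with sample weights DUSP6 was called lower and SPRY4 higher, where 9.48% and 11.5% of all genes were called in those directions. The 3 shPUS1 values lay outside the range of the 3 shControl values for 5 genes, higher for DUSP5, SPRY2, SPRY4 and SPRED1 and lower for DUSP6. Those are 4 higher and 1 lower of 10, where 18.8% of all genes were without overlap on the higher side and 17.3% on the lower, or 36.1% in all. The median log2 fold change of the 10 was 0.17, against -0.03 over all genes, and it was 0.015 without shControl replicate 2.

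**Figure D2:**
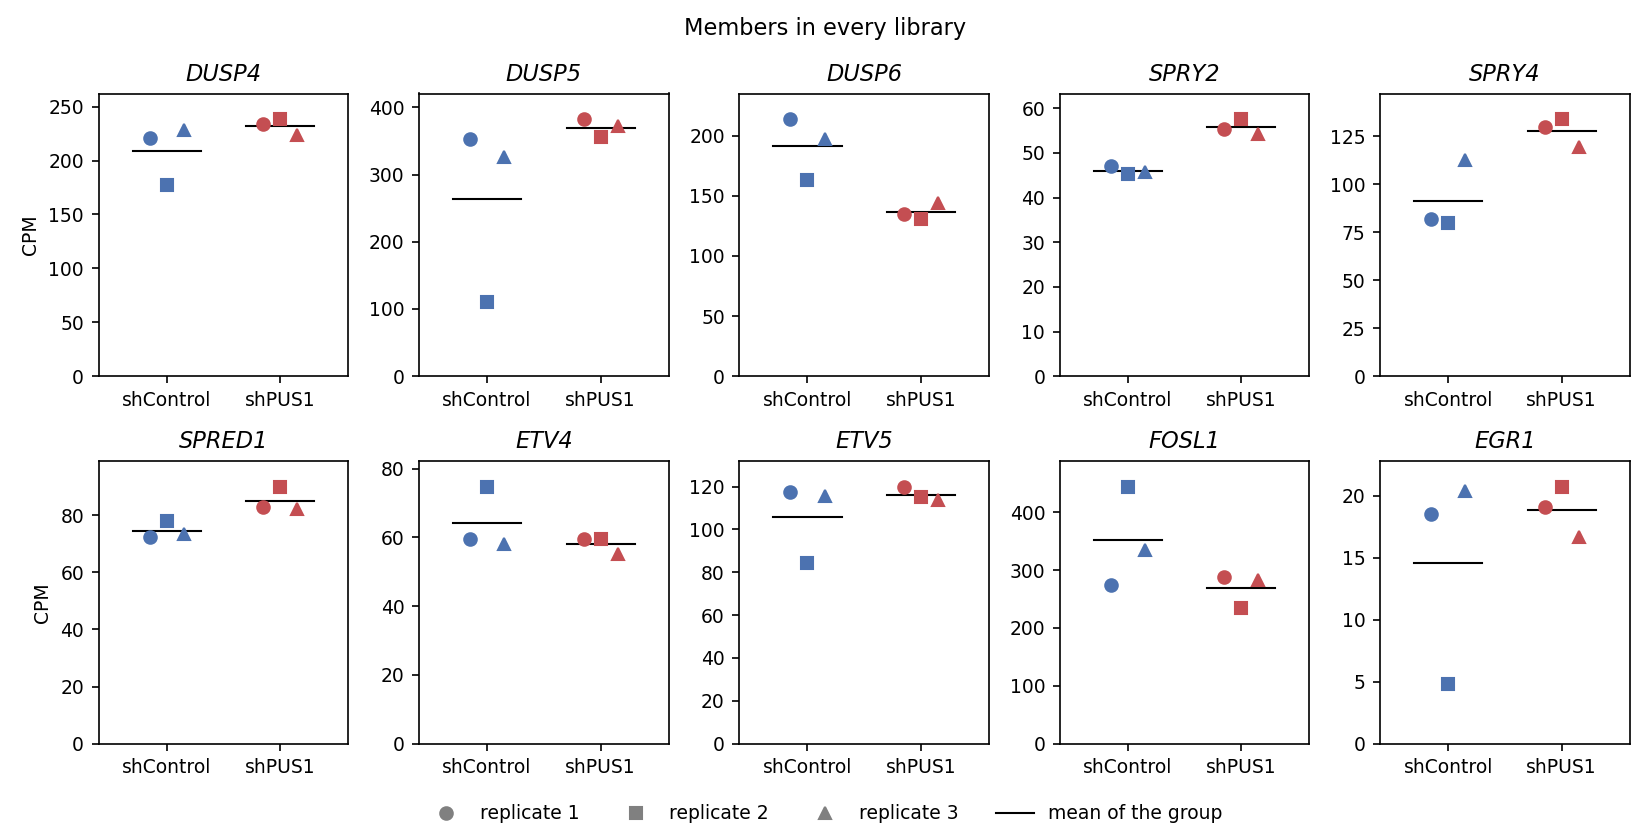
Level of the 10 genes in each library in CPM, with a panel per gene whose axis starts at 0, points for the 3 shControl and 3 shPUS1 libraries and a bar at each group's mean. DUSP6 is lower in all 3 shPUS1 libraries, and a single low control point, shControl replicate 2, sets the shControl mean of DUSP5 and EGR1 apart from the shPUS1 mean.

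DUSP6 is a cytoplasmic phosphatase that acts on ERK with high selectivity and is itself induced by ERK. Its gene (ENSG00000139318) lies at chr12:89347235-89352501 on the minus strand, on GRCh38. It was at 214, 164 and 198 CPM in the shControl libraries and at 135, 131 and 144 CPM in the shPUS1 libraries, so the groups did not overlap and shPUS1 was the lower one. The level in shPUS1 differed by -28.7% (95% interval -42.5% to -11.5%), a log2 fold change of -0.49 (SE 0.13, unadjusted p = 0.00694, adjusted p = 0.0854). The exact two-sided permutation test over the 6 libraries gave p = 0.1, the smallest value that 3 against 3 allows. Without shControl replicate 2, which was the lowest of the controls, the log2 fold change was -0.60 (95% interval -0.81 to -0.38, adjusted p = 0.00533), a call that 8.79% of all genes also received on the lower side. By DESeq2 it was -0.48 (adjusted p = 0.0296), and over 14 alternative analyses it ranged from -0.60 to -0.40 with adjusted p of 0.0027 to 0.328. An antisense transcript that overlaps DUSP6 had 14.4 to 40.5 counts a library, against 2393 to 3266 for DUSP6.

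DUSP5, a nuclear phosphatase for ERK (ENSG00000138166, chr10:110497907-110511533, plus strand), was at 352, 110.3 and 326 CPM in shControl and at 383, 355 and 372 CPM in shPUS1. The shPUS1 libraries were the higher ones without overlap, but 2 of the controls lay just below them and shControl replicate 2 lay far lower. The log2 fold change was 0.49 (SE 0.37, 95% interval -0.37 to 1.35, adjusted p = 0.428), and it was 0.12 (adjusted p = 0.388) without shControl replicate 2. DUSP4, another nuclear phosphatase, which acts on ERK and on JNK (ENSG00000120875, chr8:29333064-29350684, minus strand), was at 221, 178 and 229 CPM in shControl and at 234, 238 and 224 CPM in shPUS1. Its groups overlapped, and the log2 fold change was 0.15 (SE 0.13, 95% interval -0.15 to 0.46, adjusted p = 0.489), or 0.040 (adjusted p = 0.774) without shControl replicate 2. DUSP6 therefore differed in sign from the other 2 ERK phosphatases in the group means, and that difference between genes was not tested.

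Transcripts of SPRY2, SPRY4 and SPRED1 had higher means in shPUS1, with none of the 3 called. SPRY4 (ENSG00000187678, chr5:142310427-142326455, minus strand) was at 81.7, 79.7 and 113 CPM in shControl and at 130.1, 134 and 119 CPM in shPUS1. The groups did not overlap, although shControl replicate 3 lay near the lowest shPUS1 library. Its log2 fold change was 0.49 (SE 0.16, 95% interval 0.12 to 0.85, unadjusted p = 0.0164, adjusted p = 0.119), and 0.39 (adjusted p = 0.081) without shControl replicate 2. SPRY4 passed the threshold without shControl replicate 3, at 0.65 (adjusted p = 0.0487), where 2.09% of all genes were called higher, and in voom with sample weights, at 0.50 (adjusted p = 0.0167). Over the 14 alternatives the adjusted p ran from 0.0167 to 0.37.

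SPRY2 (ENSG00000136158, chr13:80335976-80341126, minus strand), the Sprouty gene with the tightest controls, was at 47.1, 45.3 and 45.6 CPM in shControl and at 55.5, 57.6 and 54.4 CPM in shPUS1. All 3 shPUS1 libraries were above all controls, and shControl replicate 2, though the lowest, lay close to the other controls. The log2 fold change was 0.28 (SE 0.11, 95% interval 0.02 to 0.54, unadjusted p = 0.039, adjusted p = 0.175), and 0.26 (adjusted p = 0.0832) without that library. SPRED1, which binds neurofibromin and helps it to switch off RAS (ENSG00000166068, chr15:38252836-38357249, plus strand), was at 72.2, 77.8 and 73.2 CPM in shControl and at 82.7, 89.9 and 82.1 CPM in shPUS1. Its groups did not overlap either, and the log2 fold change was 0.19 (SE 0.11, 95% interval -0.07 to 0.45, adjusted p = 0.313). Without shControl replicate 2 it was 0.22 (95% interval 0.0066 to 0.43, adjusted p = 0.135).

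**Figure D3:**
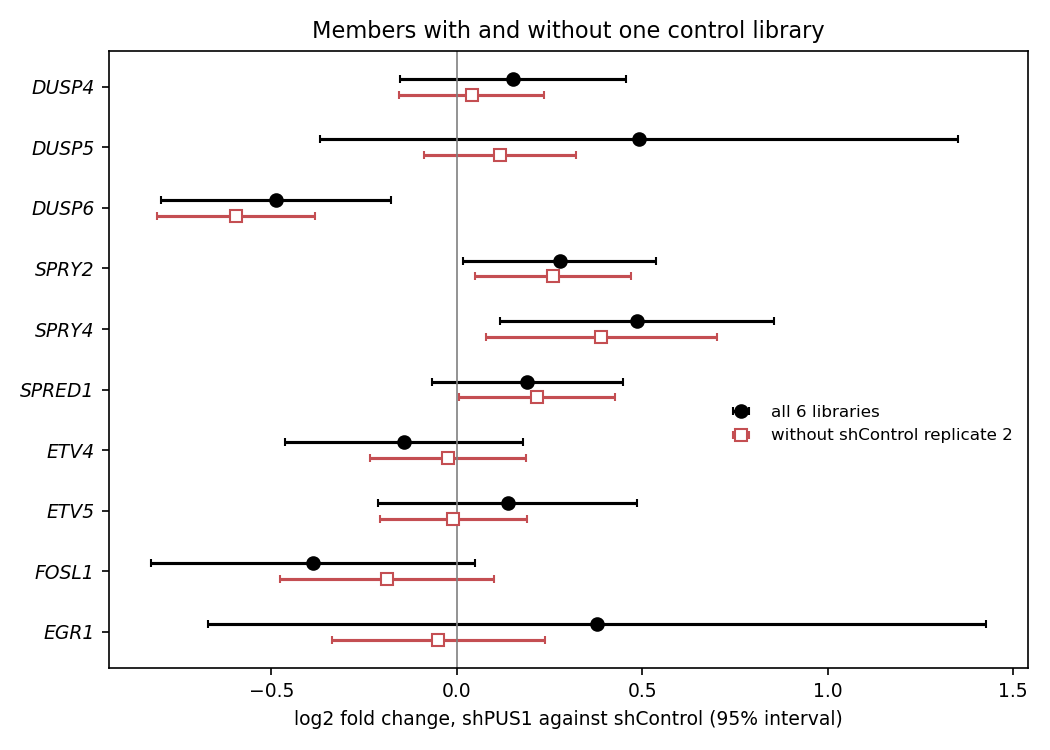
Log2 fold change of shPUS1 against shControl for the 10 genes with 95% intervals, from all 6 libraries (filled circles) and without shControl replicate 2 (open squares). The intervals of DUSP6 lie below 0 in both fits, and those of SPRY2 and SPRY4 lie above 0 in both. That of SPRED1 lies just above 0 only without that library, where DUSP5 and EGR1 move toward 0 and narrow.

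For each of the 4 transcription factor genes the groups overlapped, and none was called. ETV4 and ETV5 are ETS factors of the PEA3 family, which ERK signalling raises in many tumours. ETV4 (ENSG00000175832, chr17:43527844-43579620, minus strand) was at 59.4, 74.8 and 58.2 CPM in shControl and at 59.7, 59.5 and 55.2 CPM in shPUS1, with a log2 fold change of -0.14 (SE 0.14, 95% interval -0.46 to 0.18, adjusted p = 0.54). The groups overlapped, and the value was -0.02 without shControl replicate 2, the highest of the 6 libraries. ETV4 overlaps DHX8 on the opposite strand, with 1064 to 2125 counts, and whether counting kept the strand was not given in the sources used here, so reads of the 2 genes may be shared. ETV5 (ENSG00000244405, chr3:186046314-186110318, minus strand) was at 118, 84.3 and 115 CPM in shControl and at 119.9, 115 and 114 CPM in shPUS1. Its log2 fold change was 0.14 (SE 0.15, 95% interval -0.21 to 0.49, adjusted p = 0.588), and it turned to -0.0091 (adjusted p = 0.953) without shControl replicate 2. The annotated exons of ETV5 share 1.11% of their 100-base stretches with other genes, and the overlapping DGKG had 2 to 16 counts.

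FOSL1 (ENSG00000175592, chr11:65892049-65900573, minus strand) was at 275, 444 and 335 CPM in shControl and at 288, 234 and 283 CPM in shPUS1, with shControl replicate 2 the highest of the 6 and the groups in overlap. The log2 fold change was -0.39 (SE 0.19, 95% interval -0.82 to 0.05, adjusted p = 0.242), and it was -0.19 (adjusted p = 0.326) without that library. EGR1, whose upstream window holds the 2 CArG boxes, lies at chr5:138465479-138469303 (ENSG00000120738, plus strand). It was at 18.5, 4.82 and 20.4 CPM in shControl and at 19.1, 20.7 and 16.7 CPM in shPUS1, from 92 to 379 counts a library. All libraries but shControl replicate 2 lay close together. The log2 fold change was 0.38 (SE 0.45, 95% interval -0.67 to 1.43, adjusted p = 0.623) with that library and -0.050 (adjusted p = 0.809) without it.

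In the controls EGR1 and DUSP5 deviated most in shControl replicate 2. They were the 2 of the 10 genes at least 2-fold off there (20%, against 16.4% of all genes). shControl replicate 2 was the lowest of the 6 libraries for 6 of the 10 genes (60%), against 32.1% of all genes tested, and the highest for 2, FOSL1 and ETV4 (20%, against 34.4%). Its log2 CPM minus the mean of the other controls was -1.98 for EGR1 and -1.62 for DUSP5, and -0.03 for SPRY2. Over the 6 libraries the log2 CPM of DUSP5 and ETV5 (Pearson's r = 0.99), and of DUSP4 and EGR1 (r = 0.981), went together, while that of DUSP6 and SPRED1 (r = -0.951) went opposite ways. These r describe 6 libraries that include the deviating one and that differ by group.

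The genes most like DUSP6 in log2 CPM over the 6 libraries, among 12470 protein-coding genes, were CDCA7L (r = 0.996), CDK15 (r = 0.994), and RSRP1, HTRA1 and PAAF1 (each r = 0.993). DUSP6 was lower in shPUS1 without overlap, so a lower level of these genes in shPUS1 followed from how they were picked. Their values are descriptions and not separate findings. HTRA1, a secreted serine protease, was at 68.7, 40.1 and 54.0 CPM in shControl and at 24.3, 25.6 and 28.3 CPM in shPUS1, a log2 fold change of -1.06 (adjusted p = 0.046), and of -1.24 without shControl replicate 2. For CDCA7L, a MYC-interacting nuclear protein, the value was -0.57 (adjusted p = 0.0619), or -0.69 (adjusted p = 0.00282) without that library. CDK15 was at -0.94 (adjusted p = 0.0854), RSRP1 at -0.59 (adjusted p = 0.0854) and PAAF1 at -0.98 (adjusted p = 0.0522). Without shControl replicate 2 these were at -1.15, -0.73 and -1.14. All of these share shControl replicate 2 as the lowest control.

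Among 94 other genes of the pathway in 5 lists, 87 were tested, and 8 were called higher and 1 lower in shPUS1, or 9.20% and 1.15% of those tested against 1.74% and 0.841% of all genes. Their median log2 fold change was 0.25, and 0.22 without shControl replicate 2. Without shControl replicate 2, 24 were called higher and 7 lower, where 9.8% and 8.79% of all genes were. By edgeR 0 of them were called without shControl replicate 1, where 0.0726% of all genes were called higher and 0% lower. The count was also 0 without shPUS1 replicate 1, 2 or 3, where 0.0726%, 0.0398% and 0% of all genes were called higher and none lower. Without shControl replicate 3, 8 were higher and 0 lower, where 2.09% and 1.05% of all genes were. With all 6 libraries and an unadjusted p under 0.05, 31 of 87 were higher and 7 lower, against 12.6% and 12.8% of all genes. DESeq2 called 18 of 84 higher and 2 lower, against 7.05% and 5.36% of all genes.

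Of 19 tested genes that are also ERK output or feedback genes, 1 rose and 1 fell, against 1.74% and 0.841% of all genes. Their median log2 fold change was -0.07. Without shControl replicate 2 the median was 0.083, with 1 called higher and 4 lower, where 9.8% and 8.79% of all genes were. IER3, an immediate early gene linked to cell survival, was at 1070.2, 445 and 952 CPM in shControl and at 2919, 3361 and 3168 CPM in shPUS1, a log2 fold change of 1.94 (SE 0.30, adjusted p = 0.032) and of 1.63 without shControl replicate 2. SPRY1, a close relative of SPRY2 and SPRY4, went the other way from them, from 15.7, 8.91 and 17.4 CPM to 5.62, 4.82 and 5.73 CPM, a log2 fold change of -1.37 (SE 0.27, adjusted p = 0.0471) and of -1.62 without that library. The ERK-induced gene PHLDA1 stood at -0.07 (adjusted p = 0.797), and at -0.24 (adjusted p = 0.0954) without it.

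Of the other dual-specificity phosphatases 3 of the 7 tested were called higher and 0 lower, against 1.74% and 0.841% of all genes. Their median log2 fold change was 0.59. Without shControl replicate 2, 5 were called higher, where 9.8% of all genes were, and the median was 0.62. The count was 1 without shControl replicate 3 and 1 with library totals, where 2.09% and 1.11% of all genes were called higher. It was 0 without shControl replicate 1, without any 1 of the shPUS1 libraries, and with the replicate number as a block. In those fits 0% to 0.122% of all genes were called higher. DUSP8, which acts on JNK and p38, was at 12.0, 2.88 and 11.7 CPM in shControl and at 39.2, 40.8 and 42.7 CPM in shPUS1 (log2 fold change 2.21, SE 0.45, adjusted p = 0.0495), with 1.78 without shControl replicate 2. DUSP10, which also acts on JNK and p38, was at 33.1, 34.1 and 33.1 CPM in shControl and at 68.2, 57.8 and 64.5 CPM in shPUS1 (log2 fold change 0.93, SE 0.12, adjusted p = 0.0248). The controls of DUSP10, replicate 2 included, lay close together, and the value was 0.93 without that library too. DUSP14 rose by 0.59 on the log2 scale (adjusted p = 0.0499), and by 0.62 without shControl replicate 2. DUSP1, an immediate early phosphatase, was at 271, 32.9 and 254 CPM in shControl and at 240, 233 and 209 CPM in shPUS1, where 1 control library alone was low. Its log2 fold change was 0.29 (adjusted p = 0.788), and it turned to -0.21 (adjusted p = 0.155) without that library. DUSP3 was at 0.43 (adjusted p = 0.151), and at 0.60 (adjusted p = 0.0064) without it.

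**Figure D4:**
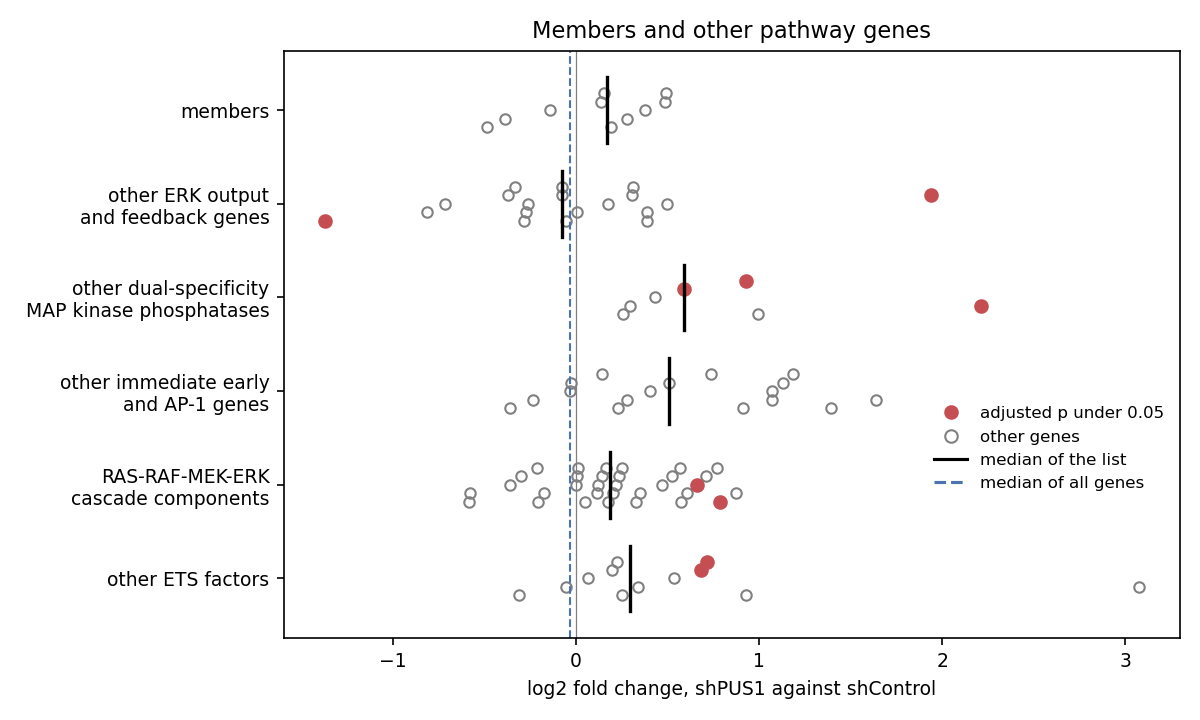
Log2 fold change of shPUS1 against shControl for the 10 genes (top row) and for the tested genes of 5 other pathway lists, 1 point per gene, filled where the adjusted p was under 0.05. Black bars mark each list's median, from -0.07 for other ERK output genes to 0.59 for the other phosphatases, and the dashed line marks the median of all genes at -0.03.

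Of 17 other immediate early and AP-1 genes, 0 were called by edgeR, while 7 were higher and 1 lower at an unadjusted p under 0.05, against 12.6% and 12.8% of all genes. Their median log2 fold change was 0.51, and 0.29 without shControl replicate 2. DESeq2 called 3 of 15 higher, against 7.05% of all genes, and voom with sample weights 6 of 17, against 11.5%. When shControl replicate 2 was left out, 6 were called higher, against 9.8%. That library was the lowest of the 6 for 12 of the 17 (70.6%), against 32.1% of all genes. JUN, the main partner of FOS proteins in AP-1, was at 256, 199.7 and 249 CPM in shControl and at 302, 304 and 326 CPM in shPUS1 (log2 fold change 0.40, adjusted p = 0.119, and 0.29 without replicate 2), and KLF6 stood at -0.03 (adjusted p = 0.877, and -0.067 without it).

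Among 32 tested components of the RAS, RAF, MEK and ERK cascade, 2 rose and none fell, against 1.74% and 0.841% of all genes. Their median log2 fold change was 0.19 with and without shControl replicate 2. Without it 7 were called higher and 2 lower, where 9.8% and 8.79% of all genes were. ELK3, an ETS factor that ERK phosphorylates, was at 213, 188 and 208 CPM in shControl and at 336, 363 and 352 CPM in shPUS1 (log2 fold change 0.79, SE 0.11, adjusted p = 0.0281, and 0.73 without replicate 2). RPS6KA1, the ERK-activated kinase RSK1, rose by 0.66 (adjusted p = 0.049), or by 0.56 without it. PEA15, which holds ERK in the cytoplasm, had 0.52 (adjusted p = 0.053), or 0.53 (adjusted p = 0.00958) without that library. PTPN11, the phosphatase SHP2 that acts upstream of RAS, had 0.0045 (adjusted p = 0.986), or 0.087 without it. The last list held ETS factors that were neither among the 10 genes nor in the lists above. Of its 12 tested genes, 2 rose and none fell, against 1.74% and 0.841% of all genes, with a median log2 fold change of 0.30. With shControl replicate 2 left out the median was 0.27, with 5 called higher and 1 lower, where 9.8% and 8.79% of all genes were. The 2 genes were ETS2 (log2 fold change 0.72, adjusted p = 0.0336, and 0.66 without that library), which ERK phosphorylates, and ELF1 (0.68, adjusted p = 0.042, and 0.63 without it). ETS1, at 705, 446 and 690 CPM in shControl and 916, 889 and 864 CPM in shPUS1, stood at a log2 fold change of 0.54 (adjusted p = 0.125), or 0.34 (adjusted p = 0.024) without replicate 2. EHF had -0.31 (adjusted p = 0.169), or -0.40 (adjusted p = 0.0163).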

How the data were processed

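Poly(A) RNA was sequenced as paired-end reads, which the authors aligned with HISAT2 and counted with HTSeq 0.6.1. The genome build, strand setting and annotation release were not given in the sources used here; all 10 genes lay on the same chromosome as, and overlapped, their GENCODE 29 model on GRCh38, and 3 had the same start and end. The table deposited by the authors holds estimated counts per gene, of which 29.8% to 31.8% of the non-zero values were not whole, and FPKM, which the authors computed per exonic length and per library total. How values that are not whole came from the counting was not given in the sources used here. No column of fold changes by the authors was used.

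Counts were rounded and tested with edgeR 4.0.16 (R 4.3.3): low genes were filtered with filterByExpr, libraries scaled by TMM, and shPUS1 compared with shControl by the quasi-likelihood test with Benjamini-Hochberg adjustment over 14748 genes. A gene was called at an adjusted p under 0.05. CPM values use TMM-scaled library sizes, and SD describes 3 libraries a group. SE and 95% intervals come from the quasi-likelihood fit, whose spread is moderated over all genes. Those given without shControl replicate 2 come from a fit that leaves that library out. Alternatives were DESeq2 1.42.0, limma 3.58.1 (voom with sample weights, and log2(FPKM + 1)), DESeq2 size factors, library totals, other filters, a replicate block and leaving out each library. The fit was tested on simulated data. Levels of the 10 genes were ordered by FPKM.

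The 10 genes and the gene lists were chosen with earlier results of these data known. Named were the 10 genes, PUS1, up to 4 called genes with the largest change and the 2 genes of highest mean CPM in each list, overlapping genes on the other strand, and the 5 protein-coding genes most correlated with DUSP6. DGKG, which overlaps ETV5 on the same strand, and TGFB2, VEGFC, MECOM, ARAP2 and THUMPD3 were named after their values were seen. Upstream windows were RefSeq's, on GRCh38.p14. A leukocyte marker is not reported here.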

Additional observations from a re-analysis of the deposited data

How the results depend on the processing

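Of 140 values of the 10 genes under 14 alternatives, 133 kept their direction and side of the threshold, 5 passed it (DUSP6 and SPRY4 only) and 2 reversed, ETV5 at -0.0091 and EGR1 at -0.050 without shControl replicate 2 (-0.0091 to 0.22 and -0.050 to 0.69 over the libraries left out). Of the 10 genes, 1 was called lower by DESeq2, and 1 lower and 1 higher by voom with sample weights, and leaving out 1 library gave 0 to 1 lower and 0 to 1 higher. Their median log2 fold change ran from 0.015 to 0.21 when 1 library was left out. For the other pathway genes, the calls were 5 higher and 0 lower with library totals, against 1.11% and 0.895% of all genes. They were 18 and 2 with no filter on low counts, against 2.8% and 1.95%, and 18 and 2 by DESeq2, against 7.05% and 5.36%. By voom with sample weights they were 29 and 6, against 11.5% and 9.48% of all genes. By limma on log2(FPKM + 1) 0 were lower, against 1.45%. Leaving out 1 library gave 0 to 24 higher and 0 to 7 lower, where 0% to 9.8% and 0% to 8.79% of all genes were called. PUS1 was at -1.001 (adjusted p = 0.0544) by limma on log2(FPKM + 1) and at -1.86 to -1.20 with 1 library left out. The cause of these shifts was not tested. Over all genes the calls numbered 380, against 2813 without shControl replicate 2, 1712 by DESeq2, 3090 by voom with sample weights and 1284 with no filter.

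With the replicate number as a block, PUS1 was at -1.55 (adjusted p = 0.0969). Of the other pathway genes 0 were called higher and 0 lower, where 0.122% and 0% of all genes were. Libraries of the same number did not deviate together (residual correlations of -0.05, -0.03 and -0.19). With 3 libraries a group, 1 control among them deviating, this cannot show whether the numbers pair the samples. The block moved the count of all calls from 380 to 18. It changed no call among the 10 genes. With 3 libraries a group and no block, the intervals of DUSP4, DUSP5, SPRED1, ETV4, ETV5, FOSL1 and EGR1 include 0. Without shControl replicate 2 that of SPRED1 was 0.0066 to 0.43, and the others of these still included 0.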

Other observations

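Genes that the deposited table annotates with the KEGG MAPK signalling pathway numbered 474, of which 262 were tested, and DUSP4, DUSP5 and DUSP6 are the 3 of the 10 genes that carry the annotation. In that wider set 7 genes were higher and 1 lower in shPUS1, 2.67% and 0.382% of those tested against 1.74% and 0.841% of all genes, with a median log2 fold change of 0.12. Without shControl replicate 2, 41 were higher and 22 lower with a median of 0.047, where 9.8% and 8.79% of all genes were called. DESeq2 called 28 of 254 higher and 12 lower, where 7.05% and 5.36% of all genes were. Beside DUSP8, DUSP10 and RPS6KA1, the higher ones included a pair of secreted ligands. TGFB2, a TGF-beta ligand, was at 160.2, 86.6 and 181 CPM in shControl and at 347, 359.7 and 348 CPM in shPUS1 (log2 fold change 1.30, adjusted p = 0.046, and 1.03 without shControl replicate 2). VEGFC, a growth factor for lymphatic vessels, was at 32.7, 37.0 and 28.8 CPM in shControl and at 59.4, 61.9 and 70.6 CPM in shPUS1 (log2 fold change 0.96, adjusted p = 0.0319, and 1.05 without it). MECOM, a zinc finger transcription factor, and ARAP2, a GTPase-activating protein, had log2 fold changes of 0.83 and 0.72, or 0.94 and 0.71 without it. THUMPD3, a tRNA methyltransferase, was the 1 lower gene, with a log2 fold change of -0.74, or -0.69 without it.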
